A study of Mus musculus with 48 samples.

Results

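Ighv1-26 and Ighv1-81 are 2 of the 112 annotated heavy chain variable (VH) genes of the mouse Igh locus, which encodes immunoglobulin heavy chains, and both are of the large Ighv1 family, also called J558. They were chosen by their measured use, strong in wild-type bone marrow (BM) pro-B cells and nearly absent in the parental v-Abl line, so the comparison of those groups is given as a description only. Their junctions are those listed on chromosome 12 (mm9) at 116026574 to 116026643 for Ighv1-26 and at 117158483 to 117158526 for Ighv1-81. These intervals held 8047 and 10619 junctions, 18666 of the 605816 junctions in the VH region in 25 libraries.

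The series applied LAM-HTGTS V(D)J sequencing, in which a primer at the JH segments (the bait) is extended by linear amplification across each joint into the segment it was joined to. Its design text asks how RAG scans the locus in 1 orientation and how locus contraction and cohesin act in long-range joining. Of 48 samples, the 25 with a full list of JH1-4 bait junctions were used, in 8 groups.

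WT BM (3 libraries) and INV BM (4 libraries, with an Igh inversion) were C57BL/6 BM pro-B cells, taken on B220 beads and cultured for 4 to 5 days in IL-7 at 10 ng/mL and SCF at 2 ng/mL. Their genotype field also lists RAG1 deficiency, and the labels name no step that restored RAG in them. The other 6 groups (3 libraries each) were v-Abl transformed pro-B lines that all carried OsTIR1, Emu-Bcl2 and RAG1 deficiency, were infected with RAG1/2 retrovirus and received 3 uM STI-571, an Abl kinase inhibitor, for 4 days in all. The parental line, without a degron, was Primary Untreated. The Wapl-degron line, in which the cohesin release factor Wapl carries a degron, was left untreated or given 150 uM IAA and Dox, labelled as 2 mg/mL, for the last 3 days (IAADox). The same pair of conditions was made in a Wapl-degron line with a single Igh allele, and a single Igh line with an inversion (single Igh INV) was measured with IAADox only. Where the inversion begins and ends is not in the labels, nor is the number of clones, cultures or mice behind the libraries. The lists hold no expression values, so cell type labels could not be set against marker genes.

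The libraries held 61194 to 1016401 junctions in 8 sequencing runs, told apart by read names. Of a library's junctions, 0.235% to 45.5% lay in the VH region, from the first to the last annotated VH gene. All of these are called VH junctions here, at a named gene or not. In Wapl-degron IAADox replicate 2, 28.4% of the lines were surplus, repeating a read name already listed. Several libraries of 1 group shared exact joints, meaning the same position, strand, bait end and inserted bases, counted over VH joints with at least 10 inserted bases and given as a percent of the smaller library. Single Igh IAADox replicates 1 and 3 shared 61.4% and single Igh INV replicates 2 and 3 shared 72.0%. The 3 Wapl-degron IAADox libraries shared 31% to 48.5%, and INV BM replicates 2 to 4 shared 15.0% to 16.2%. WT BM libraries shared 0% to 2.72%, and the untreated lines 2.43% to 8.81% within a group. Libraries of different groups shared up to 16.7%, which was 3 of the 18 such joints of single Igh INV replicate 1, and up to 10.4% within 1 sequencing run (single Igh Untreated replicate 1 with Wapl-degron Untreated replicate 3). No exact joint of Ighv1-26 or Ighv1-81 was listed in 2 groups. At Ighv1-81 itself, 9 of the 10 distinct joints of single Igh IAADox replicates 1 and 3 were the same. Such libraries may not be independent samples, so each test was computed again with them summed, which left 1 Wapl-degron IAADox, 2 single Igh IAADox, 2 single Igh INV and 2 INV BM samples. P-values measure the spread between libraries, which may be technical.

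RAG cuts DNA at a recombination signal beside each segment, made of a heptamer, a spacer and a nonamer. In pro-B cells a D is first joined to a JH, and a VH is then joined to that DJH. Loop extrusion by cohesin, which Wapl takes off chromatin, brings distant VH genes to the RAG-bound JH end, and the Ighv1 family fills the distal part of the locus.

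Both genes have a leader exon of 46 bases and a V exon of 305 bases on the minus strand. The V exon of Ighv1-26 (ENSMUSG00000076701) lies at 116026583 to 116026887 and its leader exon at 116026971 to 116027016. The V exon of Ighv1-81 (ENSMUSG00000076739) lies at 117158490 to 117158794 and its leader exon at 117158878 to 117158923. Joints fall at the 3' end of the V exon, where the signal starts. Ighv1-26 lies 1214 kb and Ighv1-81 lies 2346 kb from the D-proximal end of the VH region, 1132 kb apart. Between them and the D segments stood 63 and 107 other annotated VH genes, of which 57 and 99 had at least 10 junctions.

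The signal beside each gene is shown because it is the substrate of every joint below. Each line gives the last 30 bases of the V exon and the signal, 5′ to 3′ on the coding strand of mm9, with the heptamer and the nonamer in capitals.

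Ighv1-26, chr12:116026544-116026612: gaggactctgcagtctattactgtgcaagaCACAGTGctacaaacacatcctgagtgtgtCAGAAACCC
Ighv1-81, chr12:117158451-117158519: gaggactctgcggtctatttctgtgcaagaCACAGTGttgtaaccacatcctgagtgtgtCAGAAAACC

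Signals could be read beside 90 annotated genes. The shares below are of all 112, so they are minimums. Both genes had the heptamer CACAGTG, which stood beside 72 of the 112 annotated VH genes (64.3%). The nonamer CAGAAACCC of Ighv1-26 stood beside 23 genes (20.5%), all of them Ighv1 genes. The nonamer CAGAAAACC of Ighv1-81 stood beside 3 genes (2.68%). Each was read at the V end on the coding strand after a spacer of 23 bases, and 19 of the 23 spacer bases were the same in both genes. Their V exons matched at 259 of 305 bases (84.9%). Other genes, named after their values were seen, were closer. Ighv1-22 and Ighv1-34 each matched Ighv1-26 at 96.4% of bases, and Ighv1-85 matched Ighv1-81 at 92.8%. How the mapping filter divided reads among such near copies is not given in the sources used here, so the level of Ighv1-26 carries that uncertainty.

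The most frequent joint of each gene in WT BM, INV BM and the IAADox lines shows what was counted. Each line gives 18 bases of the V side in lower case, the inserted bases (D and added bases) in capitals, and 18 bases of the JH side in lower case.

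Ighv1-26, WT BM: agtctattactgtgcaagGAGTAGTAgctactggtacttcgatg
Ighv1-26, INV BM: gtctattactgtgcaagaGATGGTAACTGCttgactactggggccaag
Ighv1-26, IAADox: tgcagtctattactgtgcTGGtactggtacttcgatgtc
Ighv1-81, WT BM: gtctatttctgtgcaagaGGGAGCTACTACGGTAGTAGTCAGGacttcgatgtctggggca
Ighv1-81, INV BM: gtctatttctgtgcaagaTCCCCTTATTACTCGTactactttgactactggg
Ighv1-81, IAADox: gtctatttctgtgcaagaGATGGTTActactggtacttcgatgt

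The WT BM joint of Ighv1-26 was listed 98 times, all in replicate 2, had lost 1 base of the V and kept the reading frame into Ighj1. The WT BM joint of Ighv1-81 was listed 80 times in 2 libraries, had lost no V base and was in frame into Ighj1. No single joint made up the level of either gene in marrow. The most frequent joint of a library held 0.958% to 5.05% of its Ighv1-26 or Ighv1-81 junctions in WT BM. In INV BM that share was 12.1% to 25% for Ighv1-26 and 2.67% to 4.10% for Ighv1-81.

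In WT BM, Ighv1-26 held 4384, 1940 and 1313 junctions in replicates 1, 2 and 3, which were 1.09%, 0.381% and 0.129% of all junctions. As a share of VH junctions these were 2.40%, 2.32% and 2.14%, a mean of 2.29% ± 0.133 (SD, n = 3). The share of all junctions ran over a wide range between the replicates, while the share of VH junctions was close in all 3 libraries.

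Ighv1-81 held 3861, 1937 and 2198 WT BM junctions, or 0.962%, 0.380% and 0.216% of all junctions. Its share of VH junctions was 2.11%, 2.32% and 3.58%, a mean of 2.67% ± 0.795 (SD, n = 3). Replicate 3 was high for Ighv1-81 and not for Ighv1-26. The counts came from 1183, 231 and 227 distinct joints of Ighv1-26 and from 863, 196 and 294 of Ighv1-81.

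By mean share of VH junctions in WT BM, Ighv1-81 ranked 3 and Ighv1-26 ranked 5 among the 106 annotated genes with a junction, and they ranked 1 and 2 among Ighv1 genes. The next Ighv1 genes were Ighv1-18 at 1.99% ± 0.131, Ighv1-64 at 1.79% ± 0.640 and Ighv1-19 at 1.61% ± 0.175 of VH junctions (SD, n = 3).

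**Figure D1:**
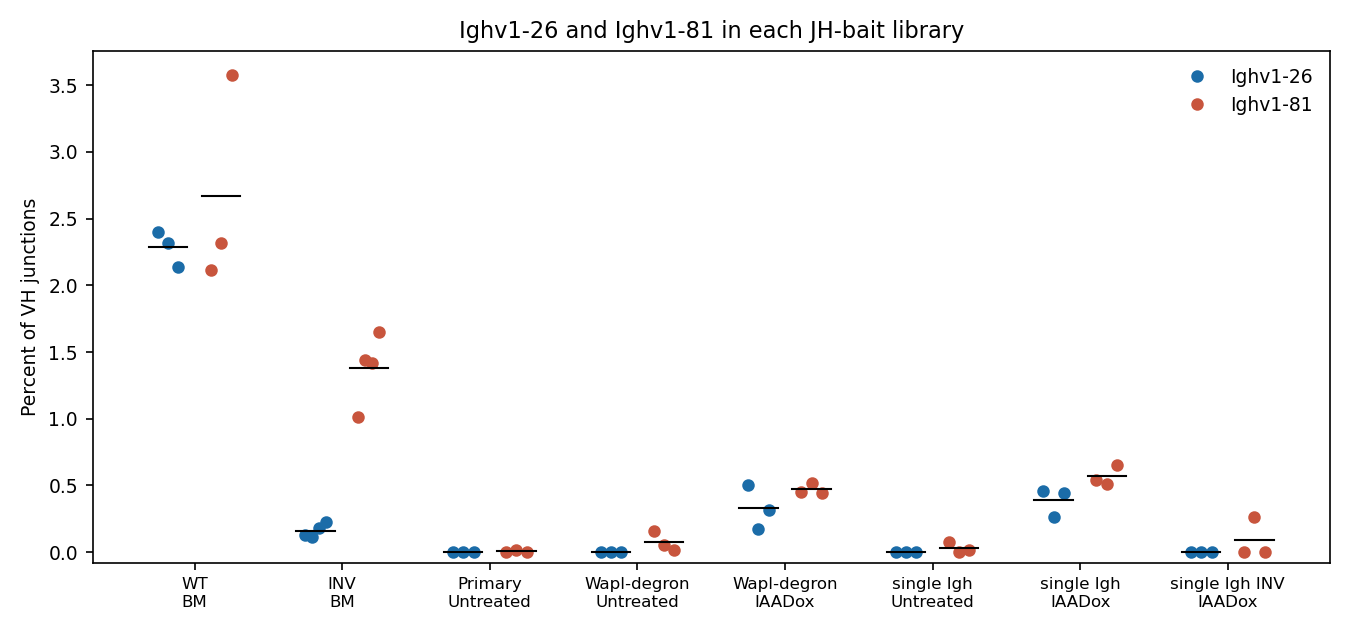
Share of VH junctions (percent, y axis) held by Ighv1-26 (blue) and Ighv1-81 (red) in each of the 25 libraries; points are libraries and bars are group means. Ighv1-26 had means of 2.29% in WT BM and 0.162% in INV BM, and Ighv1-81 had means of 2.67% and 1.38%.

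In INV BM, Ighv1-26 held 115, 33, 44 and 100 junctions in replicates 1 to 4, or 0.125%, 0.116%, 0.181% and 0.225% of VH junctions. Ighv1-81 held 934, 412, 344 and 732 junctions, or 1.01%, 1.44%, 1.42% and 1.65%. No INV BM library reached the lowest WT BM library for either gene. A lower level was common there: among the 12 VH genes highest in WT BM, all but the highest had a lower mean in INV BM. The share of all VH genes without overlap between these groups was not counted. The means by lines were 0.162% ± 0.0512 for Ighv1-26 and 1.38% ± 0.265 for Ighv1-81 (SD, n = 4). With each distinct junction counted once, they were 0.259% ± 0.0624 and 1.76% ± 0.281 in INV BM, against 2.60% ± 0.224 and 2.45% ± 0.568 in WT BM. On that count the highest INV BM library for Ighv1-81 (2.05%) lay just under the lowest WT BM library (2.07%). By lines, Ighv1-81 ranked 2 among VH genes in all 4 INV BM libraries, and Ighv1-26 ranked 22, 29, 21 and 17. These levels are a description, because the WT BM libraries also chose the genes.

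The gene ranked above Ighv1-81 in INV BM was Ighv5-2, a D-proximal VH gene, named here after its values were seen. It held 83.9% ± 1.01 of VH junctions in INV BM (SD, n = 4) and 7.45% ± 1.80 in WT BM (SD, n = 3). Among the VH junctions outside Ighv5-2, Ighv1-81 held 2.90% ± 0.923 in WT BM and 8.55% ± 1.31 in INV BM, where the libraries ran from 6.94% to 10.2%. On the same base Ighv1-26 held 2.47% ± 0.0968 in WT BM and 1.01% ± 0.306 in INV BM. With that gene set aside, the share of Ighv1-81 was thus above WT BM in every INV BM library and the share of Ighv1-26 below it. A kept share was not particular to Ighv1-81. Of all VH junctions, Ighv1-83 held 0.158% in WT BM and 0.145% in INV BM, and Ighv1-72 held 1.35% and 0.623%. By contrast, Ighv1-18 went from 1.99% to 0.136% and Ighv1-64 from 1.79% to 0.232%. Shares of these genes outside Ighv5-2 were not computed. Of all junctions, Ighv1-81 held 0.520% ± 0.392 in WT BM and 0.127% ± 0.00842 in INV BM, and Ighv1-26 held 0.534% ± 0.50 and 0.0148% ± 0.00364. That base differed between libraries. D and VH junctions were 165882 of 509261 and 120067 of 1016401 in WT BM replicates 2 and 3, and 703241 of 785235 in INV BM replicate 1. Of D and VH junctions, Ighv1-81 held 1.34% ± 0.432 in WT BM and 0.135% ± 0.00899 in INV BM. Ighv1-26 held 1.14% ± 0.0408 and 0.0159% ± 0.00402.

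In Primary Untreated, no Ighv1-26 junction was listed, which allows up to 0.000463% to 0.00138% of all junctions in a library (3 counts). Ighv1-81 held 0, 1 and 0 junctions there. In the untreated Wapl-degron line Ighv1-26 was again at 0, and Ighv1-81 held 3, 4 and 1 junctions. In the untreated single Igh line Ighv1-26 was at 0, and Ighv1-81 held 3, 0 and 1 junctions. Each untreated Wapl-degron library had its Ighv1-81 junctions from 1 distinct joint, on the minus strand in replicate 1.

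With IAADox both genes appeared in every library of the uninverted degron lines. Ighv1-26 held 20, 13 and 18 junctions in the Wapl-degron line, or 0.504%, 0.176% and 0.318% of VH junctions. Ighv1-81 held 18, 38 and 25, or 0.454%, 0.514% and 0.441%. The 38 lines of replicate 2 came from 24 read names. No treated library overlapped an untreated one for either gene. The share of all VH segments without overlap was not counted, and 116 of the 128 tested rose in the fit below (90.6%).

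In the fit across all VH segments (limma voom on junction counts, with all junctions of a library as its size and Benjamini-Hochberg adjustment over all segments), Ighv1-26 rose by 6.83 on the log2 scale (SE 0.72, adjusted p = 3.1e-19). Ighv1-81 rose by 5.22 (SE 0.64, limma adjusted p = 7.2e-15). Both genes passed the filter of at least 10 junctions only through the treated libraries. At 0 untreated junctions only a rise of Ighv1-26 could be found, so no conclusion is drawn from its p-value. In this comparison 116 of the 128 segments tested rose, or 90.6%, with a median of 4.88, so a rise was the common outcome there. All 45 other Ighv1 genes tested rose too, with a median of 6.00. Against the floor of 3 counts per library Ighv1-26 was at least 19.3-fold higher. The pooled ratio for Ighv1-81 was 42.2, with a 95% counting interval of 20.4 to 101, and 40.6 (19.4 to 97.8) with each read name counted once. Both intervals take lines or read names as independent, but the 8 untreated lines came from 3 distinct joints. They are thus too narrow. The ratio of the library means was 28.9. The untreated mean of 0.000614% of all junctions lay under the 3-count floor of 0.000657%, so these ratios are imprecise. Leaving out single libraries gave 6.52 to 7.51 for Ighv1-26 and 4.59 to 5.86 for Ighv1-81, all called. With the 3 treated libraries summed to 1 the changes were 6.95 and 5.11, given with no call, since 1 sample holds no spread of its own. With separate libraries they were smaller, and still called, with VH junctions as the library size (4.77 and 3.23, median of all segments 2.80) and with distinct junctions (5.58 and 4.21, median 3.74). Within run 5, which held the 3 untreated libraries and IAADox replicate 2, Ighv1-26 had 13 junctions with IAADox and none without, and Ighv1-81 had 38 (24 read names) against 3, 4 and 1.

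The single Igh line was measured in the same way. Ighv1-26 held 21, 24 and 22 junctions with IAADox, or 0.457%, 0.262% and 0.447% of VH junctions. Ighv1-81 held 25, 47 and 32 junctions, or 0.544%, 0.512% and 0.650%. The treated libraries again did not overlap the untreated ones. As before, the share of all segments without overlap was not counted, and 124 of the 134 tested rose (92.5%).

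Ighv1-26 rose by 7.26 (SE 0.84, limma adjusted p = 5.8e-07) and Ighv1-81 by 7.08 (SE 0.72, limma adjusted p = 1.7e-07) on the log2 scale. Again both genes passed the filter only through the treated libraries. At 0 untreated junctions only a rise of Ighv1-26 could be found. Of 134 segments 124 rose, or 92.5%, with a median of 5.04, and all 45 other Ighv1 genes tested rose, with a median of 5.72. Ighv1-26 was at least 26.4-fold higher, and the pooled ratio for Ighv1-81 was 99.2 (95% counting interval 37.6 to 371). That interval is also too narrow, as the 4 untreated lines came from 3 distinct joints and the 104 treated lines from 41. The ratio of the library means was 61.8, over an untreated mean of 0.000433% that again lay under the 3-count floor (0.000695%). Leaving out single libraries gave 6.97 to 7.71 for Ighv1-26 and 5.99 (without untreated replicate 2) to 7.60 (without untreated replicate 1) for Ighv1-81, all called. With the libraries that share joints summed, the changes were 7.26 and 6.99 and the calls were kept. They were also kept at 5.37 and 5.13 with VH junctions as the size (median 3.11) and at 5.52 and 4.48 with distinct junctions (median 3.77). With the sequencing run as a block both calls were lost, at 7.77 (limma adjusted p = 0.19) for Ighv1-26 and 8.56 (limma adjusted p = 0.068) for Ighv1-81. Within run 6, which held untreated replicate 2 and IAADox replicates 2 and 3, Ighv1-26 had 0 junctions without and 24 and 22 with IAADox, and Ighv1-81 had 0 without and 47 and 32 with it.

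The IAADox effect was 0.47 larger in the single Igh line than in the Wapl-degron line for Ighv1-26 and 1.51 larger for Ighv1-81 on the log2 scale (SE 1.10 and 0.97). Neither difference passed (limma adjusted p = 0.94 and 0.57 for the interaction). None of 160 segments did, so 0% were called, and 17 had an unadjusted p under 0.05. The difference for Ighv1-26 changed sign with distinct junctions counted once (-0.07) and ran between -0.24 and 0.91 as single libraries were left out. The difference for Ighv1-81 fell to 0.32 with distinct junctions. It was 0.31 without single Igh Untreated replicate 2, 0.84 without Wapl-degron Untreated replicate 1, 2.27 without single Igh Untreated replicate 1 and 2.38 without Wapl-degron Untreated replicate 3. Untreated counts of 0 to 4 leave both effects imprecise. Ighv1-26 had 0 junctions in every untreated library of both lines, so its difference cannot show whether the effect differs between them. With libraries that share joints summed the differences were 0.31 and 1.59.

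After IAADox, both genes stayed far below WT BM in their share of VH junctions. Means were 0.333% ± 0.165 and 0.470% ± 0.0390 in the Wapl-degron line and 0.388% ± 0.110 and 0.569% ± 0.0719 in the single Igh line for Ighv1-26 and Ighv1-81 (SD, n = 3). Among annotated VH genes, Ighv1-26 ranked 61 in both lines, and Ighv1-81 ranked 51 and 42. They led the Ighv1 family in WT BM, which chose them, and in these lines they ranked 32 and 26 of 54 and 29 and 20 of 54.

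In the inverted single Igh line with IAADox, Ighv1-26 was at 0 in all 3 libraries, which allows up to 0.000912% to 0.00490% of all junctions. Ighv1-81 held 0, 3 and 0 junctions, and the 3 were 1 joint. The uninverted libraries, at 21 to 24 and 25 to 47 junctions, lay above all of these. How many of all segments were separated like this was not counted, and 129 of the 136 tested fell (94.9%).

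Ighv1-26 fell by 5.95 (SE 0.86, limma adjusted p = 6.1e-08) and Ighv1-81 fell by 5.94 (SE 0.76, limma adjusted p = 5.1e-09) on the log2 scale against the uninverted line. Both genes passed the filter only through the uninverted libraries. At 0 inverted junctions only a fall of Ighv1-26 could be found. Of 136 segments 129 fell, or 94.9%, with a median of -5.23, and all 45 other Ighv1 genes tested fell, with a median of -5.51. Ighv1-26 was at least 7.68-fold lower, and uninverted over inverted gave a pooled ratio of 52.7 for Ighv1-81 (95% counting interval 17.5 to 260). This interval is too narrow as well, because the 3 inverted lines were 1 joint. The ratio of the library means was 58.7, with the inverted mean under the 3-count floor. Without single Igh INV replicate 3 the change of Ighv1-81 was -4.27, and without the other libraries in turn it was -5.64 to -6.41. For Ighv1-26 these values were -5.30 to -6.56. With the sequencing run as a block the changes were -5.80 and -4.35 (limma adjusted p = 6.4e-05 and 3.1e-04), with 115 segments lower. With libraries that share joints summed, the changes were -6.16 and -5.24 (limma adjusted p = 4.8e-05 and 6.1e-05). When VH junctions alone set the library size they were -2.28 and -2.24 and did not pass (limma adjusted p = 0.11 and 0.061), and with distinct junctions they were -3.55 and -3.35 and did pass (median -3.52). The fall was thus called relative to all junctions and not relative to the VH junctions left, of which Ighv5-2 held 81.0% in the inverted line. In run 4, which held uninverted replicate 1 and inverted replicates 1 and 2, Ighv1-26 had 21 against 0 and 0 junctions, and Ighv1-81 had 25 against 0 and 3.

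By mean share of VH junctions, the order for Ighv1-26 was WT BM, single Igh IAADox, Wapl-degron IAADox, INV BM, then the 4 groups at 0. Neighbours in that order from single Igh IAADox to INV BM overlapped between libraries. For Ighv1-81 it was WT BM, INV BM, single Igh IAADox, Wapl-degron IAADox, single Igh INV IAADox and the untreated lines. There WT BM and INV BM did not overlap, the uninverted IAADox groups overlapped at 0.512% and 0.514%, and the last 4 groups rested on 0 to 4 junctions per library.

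The ratio of Ighv1-81 to Ighv1-26 within a library needs no common scale between libraries. Both genes were chosen for high WT BM counts, which holds their WT BM ratio near equal, so comparisons with WT BM are a description with no test. On the log2 scale, with 0.5 junctions added to each count, it was -0.18, -0.00 and 0.74 in WT BM. In INV BM it was 3.02, 3.62, 2.95 and 2.87. The 7 libraries did not overlap, and the lowest INV BM library lay above the highest WT BM library by more than the range of either group.

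The INV BM mean of 3.11 ± 0.344 (SD, n = 4) exceeded the WT BM mean of 0.19 ± 0.491 (SD, n = 3) by 2.93, a factor of 7.61. Within run 2 the difference was 2.78 and within run 7 it was 3.20. Summing the INV BM libraries that share joints left a difference of 2.86. Over the alternatives the difference stayed between 2.74 and 3.21.

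**Figure D2:**
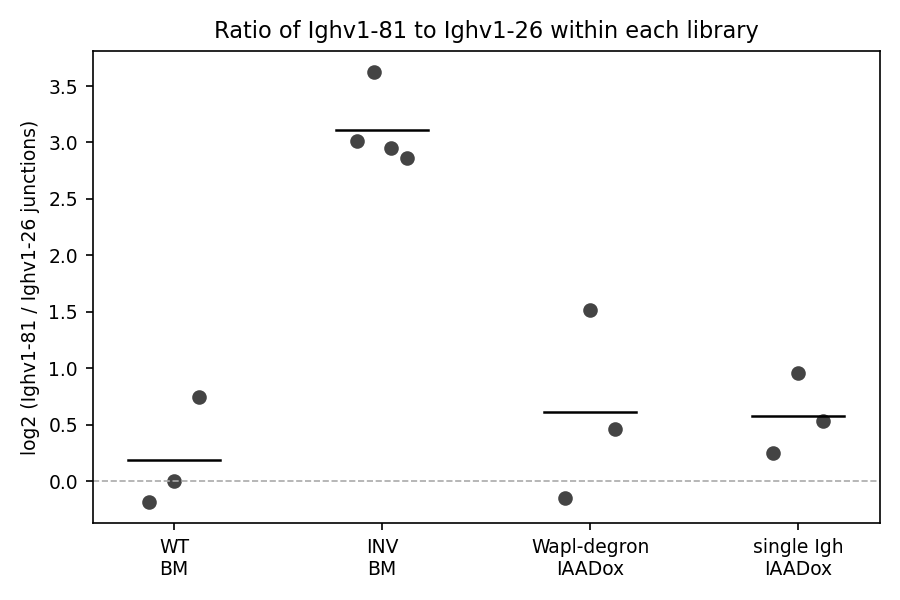
Log2 ratio of Ighv1-81 to Ighv1-26 junctions (y axis, 0.5 added to each count) in each library of WT BM, INV BM and the uninverted IAADox lines; points are libraries, bars are group means and the dashed line marks equal counts. The 4 INV BM libraries lie at 2.87 to 3.62, above the WT BM libraries at -0.18 to 0.74.

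In the IAADox lines the ratio overlapped with WT BM. It was -0.15, 1.51 and 0.46 in the Wapl-degron line and 0.25, 0.96 and 0.53 in the single Igh line, with means of 0.61 and 0.58. The differences from the WT BM mean were 0.42 and 0.39. Without Wapl-degron IAADox replicate 2 the first difference was -0.03. In the inverted single Igh line only replicate 2 held junctions of the pair, 3 of 1 joint. Replicates 1 and 3 held neither gene, so their ratio of 0 came from the 0.5 added to each count. The difference of 0.36 from the uninverted line thus rests on replicate 2, and it was -0.58 without it. The two-sided exact permutation test (p = 1.0 with all libraries, smallest possible 0.1) cannot compare the lines, as most inverted libraries lack both genes.

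The joints themselves were then compared. A joint was called in frame where the V reading frame runs on into that of JH, which a heavy chain protein needs. The choice of the genes did not name joint structure, but the WT BM counts behind it include the in-frame joints. Of WT BM lines with a readable frame, 6607 of 7796 were in frame for Ighv1-81 and 4930 of 7275 for Ighv1-26. The WT BM shares below are thus not independent of the choice. Distinct joints were counted once within a library.

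In WT BM, 79.3%, 81.4% and 83.9% of the distinct Ighv1-81 joints of replicates 1 to 3 were in frame. For Ighv1-26 the shares were 72.1%, 55.0% and 50.9%, and for the other Ighv1 genes together 70.7%, 52.9% and 52.4%. Ighv1-81 was highest in each library, by the least in replicate 1, and Ighv1-26 lay near the other genes.

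In INV BM, Ighv1-81 reached 63.7%, 68.4%, 73.3% and 75.3%, from 116 to 182 joints a library. Ighv1-26 had 50.0%, 42.9%, 47.1% and 42.3%, from 14 to 36 joints. The other Ighv1 genes had 49.4%, 42.1%, 44.7% and 46.6%. Every library of both groups thus put Ighv1-81 above both others.

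**Figure D3:**
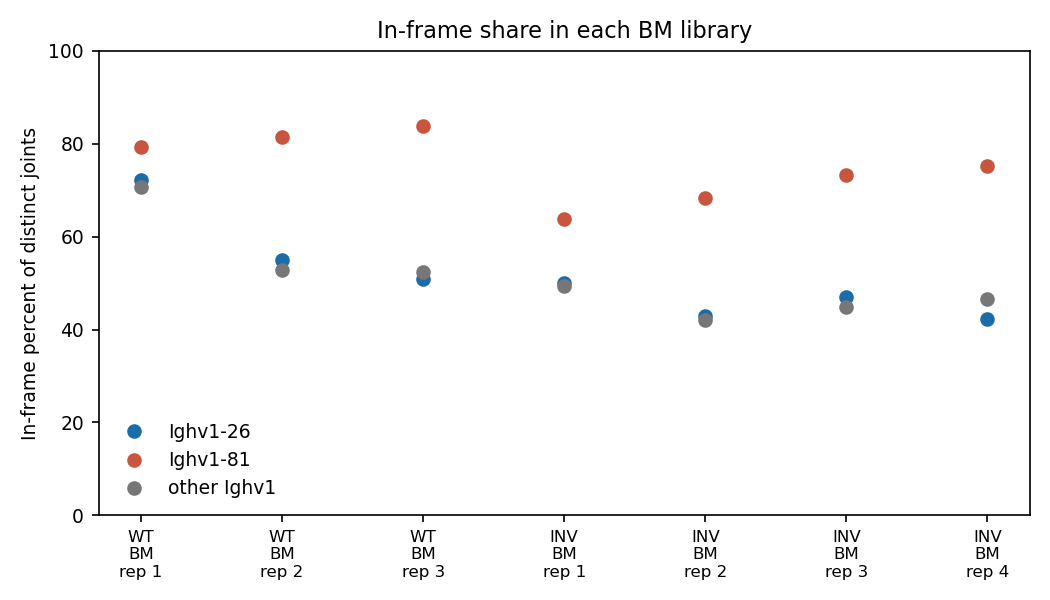
Percent of distinct joints in frame (y axis) in each WT BM and INV BM library for Ighv1-26 (blue), Ighv1-81 (red) and the pooled other Ighv1 genes (grey); points are single libraries. Ighv1-81 lies at 63.7% to 83.9% and is the highest of the 3 in all 7 libraries, while Ighv1-26 follows the other Ighv1 genes.

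Counted by lines, Ighv1-81 exceeded the other Ighv1 genes by 26.0 percentage points on average, in 7 of 7 libraries. The 3 WT BM libraries among them also chose the genes. The two-sided exact sign-flip permutation test gave p = 0.0156, the smallest that 7 libraries allow, and 0.075 after adjustment over 24 tests of joint structure, so it did not pass. Ighv1-26 lay 26.3 points below Ighv1-81 in 7 of 7 libraries (exact p = 0.0156, adjusted 0.075) and 0.31 points below the other Ighv1 genes (exact p = 0.92). Counting distinct joints, Ighv1-81 lay 23.6 points above Ighv1-26 (adjusted permutation p = 0.107). With libraries that share joints summed to 5, the difference from the other Ighv1 genes was 25.1 points, in 5 of 5 (exact p = 0.0625, the smallest possible).

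Over pooled WT BM joints, the in-frame share was 66.9% of 1585 for Ighv1-26 and 80.6% of 1309 for Ighv1-81. Ighv1-81 ranked 1 and Ighv1-26 ranked 25 among the 42 Ighv1 genes with at least 100 distinct joints, whose median was 67.6% and lowest value 36.8%. Replicate 1, with the highest shares, held most of these joints, so ranks were also taken within libraries. There Ighv1-81 ranked 1 of 41, 1 of 13 and 1 of 14 genes with at least 100 joints in replicates 1 to 3, and Ighv1-26 ranked 26, 9 and 13. In INV BM, Ighv1-81 again ranked 1, of 10 such genes with a median of 47.9%, at 69.9% of 604 joints, where single libraries held too few such genes for a rank. In the IAADox lines the shares were lower and rested on few joints. Ighv1-81 had 48.8% of 43 and 32.5% of 40, Ighv1-26 had 31.4% of 35 and 12.1% of 33, and the other Ighv1 genes had 29.9% and 29.4%. A joint shared by several libraries counts once in each, so these numbers hold some joints more than once.

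Joints without a stop codon that kept the frame, called open here, put Ighv1-81 above Ighv1-26 in marrow. In WT BM 60.5% of Ighv1-26 and 75.9% of Ighv1-81 distinct joints were open, and in INV BM 38.7% and 65.2%. In the Wapl-degron line with IAADox that order was not kept, at 28.6% of 35 and 27.9% of 43 joints. Ighv1-81 was again the higher gene in the single Igh line with IAADox. In open WT BM joints, the loop between the conserved cysteine and tryptophan (CDR3) had a median of 12 codons for both genes and for the other Ighv1 genes. Its middle range (quartiles) there was 10 to 14 codons for Ighv1-26 and 10 to 13 for Ighv1-81. In INV BM the medians were 10.5 for Ighv1-26 (36 open joints) and 12 for Ighv1-81 and the other Ighv1 genes. For Ighv1-26, Ighv1-81 and the other Ighv1 genes they were 10, 10.5 and 9 in the Wapl-degron line with IAADox. In the single Igh line with IAADox they were 13, 11 and 11. Each member had only 3 to 12 open joints in those lines.

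Most joints began exactly at the annotated end of the V exon. This held for 59.4% of distinct Ighv1-26 joints and 59.9% of Ighv1-81 joints in WT BM, and for 58.8% and 71.0% in INV BM. Joints that lacked no V base, which include those running a base or more into the signal, made up 78.6% of Ighv1-81 lines, 64.8% of Ighv1-26 lines and 68.4% of other Ighv1 lines as means over the 7 marrow libraries. Ighv1-81 exceeded the other genes by 10.2 points in 7 of 7 libraries (exact permutation p = 0.0156, adjusted 0.075). With libraries that share joints summed the excess was 9.01 points, in 5 of 5.

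**Figure D4:**
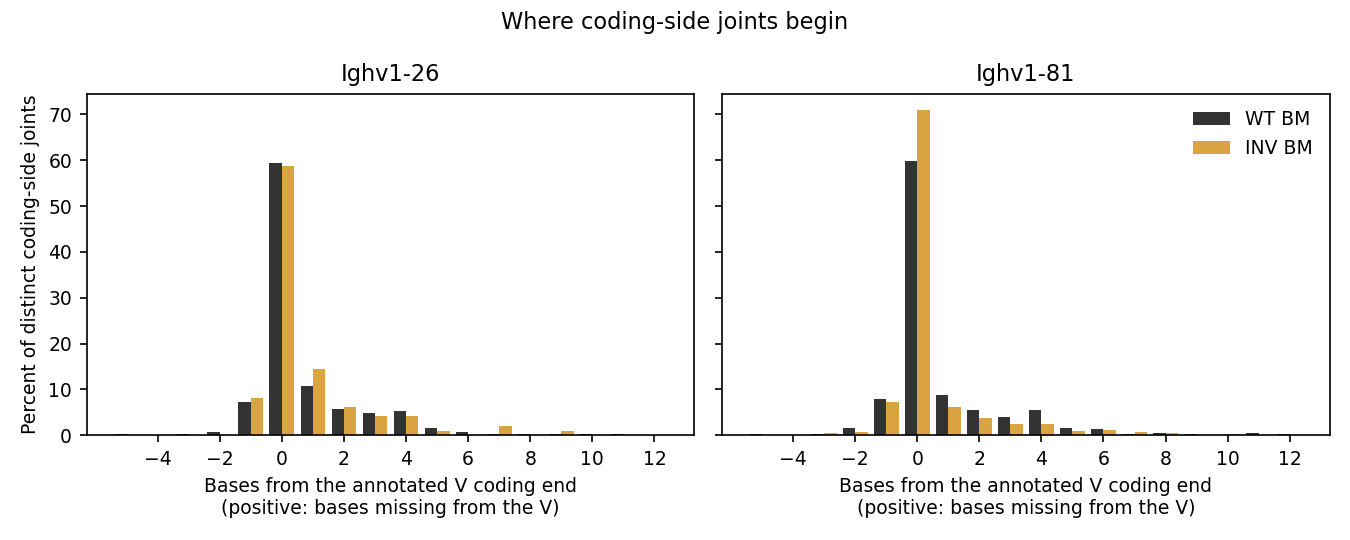
Percent of distinct coding-side joints (y axis) by the number of bases missing from the annotated V end (x axis, in bases; negative values run past that end) for Ighv1-26 (left) and Ighv1-81 (right) in WT BM (black bars) and INV BM (yellow bars). The bar at 0 holds 59.4% and 58.8% for Ighv1-26 and 59.9% and 71.0% for Ighv1-81.

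Ighj2 was the most used partner of both genes in marrow, with 44.3% of distinct Ighv1-26 and 44.1% of distinct Ighv1-81 joints in WT BM. Ighj3 had 17.9% and 22.2%, Ighj4 had 21.3% and 19.6%, and Ighj1 had 16.4% and 14.1%. By lines, the Ighj3 share was 3.17 points lower at Ighv1-26 than at Ighv1-81 on average, in 7 of 7 libraries (exact permutation p = 0.0156, adjusted 0.075). With distinct joints it was 4.12 points lower on average, and 2 of 7 libraries went the other way (exact permutation p = 0.109, adjusted 0.26). Inserted bases matched the Ighd1 family in 33.4% and 37.6% of joints and the Ighd2 family in 35.4% and 32.2%. No JH share of either gene passed after adjustment.

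The inserted stretch, which spans the D and the bases added on both sides, averaged 17.6 bases for Ighv1-26 and 18.1 for Ighv1-81 in WT BM. It averaged 17.9 and 18 bases in INV BM. In the IAADox lines it was shorter for both genes, at 11.2 and 13 bases in the Wapl-degron line and 9.4 and 10.7 in the single Igh line. The other Ighv1 genes showed the same difference, with 17.8 bases in WT BM and 11.9 and 11.4 in these lines. No listed insert exceeded 30 bases, so any longer ones would be missing from these means. The difference between marrow and lines was not tested.

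**Figure D5:**
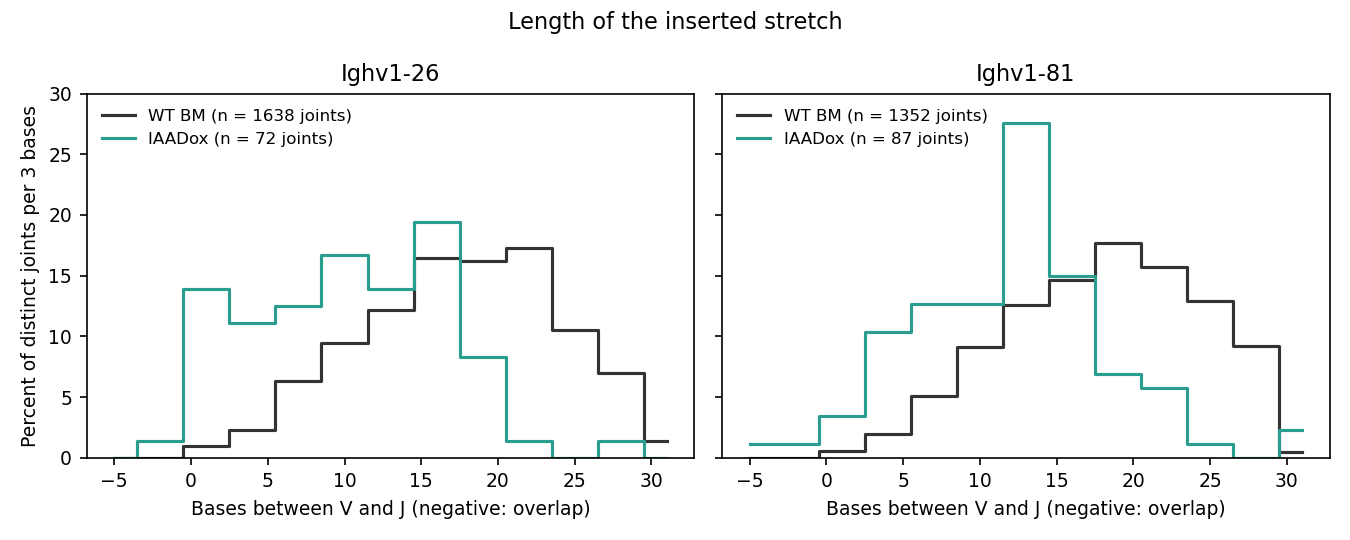
Percent of distinct joints per bin of 3 bases (y axis) by the number of bases between V and J (x axis; negative values are overlaps) for Ighv1-26 (left) and Ighv1-81 (right), in WT BM (black) and in both uninverted IAADox lines together (green). WT BM joints, 1638 and 1352 in number, lie to the right of the 72 and 87 IAADox joints. A joint shared by several libraries counts once in each.

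A small class of junctions ran the other way, with the prey on the minus strand. At Ighv1-81 these were 138 of 2422 junctions in INV BM, all on the signal side of the V end, or 5.46%, 5.10%, 5.52% and 6.42% of replicates 1 to 4. In WT BM they were 8 of 7996, all from 1 joint of replicate 1. The groups did not overlap, and all 4 INV BM libraries lay close together.

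The other Ighv1 genes also showed this class, with 5.49% ± 1.29 in INV BM (SD, n = 4) and 0.374% ± 0.188 in WT BM (SD, n = 3). Of their 482 minus-strand junctions in INV BM, 284 lay on the signal side. The INV BM excess was 5.56 percentage points at Ighv1-81 and 5.12 at the other Ighv1 genes. Each gave an exact permutation p = 0.0571, the smallest possible, and 0.0857 after adjustment over 3 tests. The WT BM libraries also chose both members, and their junction counts are the base of the WT BM shares. A test of either member is thus not independent of the choice. With INV BM libraries that share joints summed to 2 samples, the excesses were 5.58 and 5.36 points (exact permutation p = 0.20, the smallest possible). Of the 138 junctions 56 began at the first base of the heptamer, and the 138 came from 21 distinct joints. The most frequent one, listed 43 times in 3 libraries, is shown with its inserted bases in capitals and lacks most of the heptamer.

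Ighv1-81, INV BM, minus strand: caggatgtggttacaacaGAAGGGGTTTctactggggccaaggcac

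Ighv1-26 had 10 minus-strand junctions of 292 in INV BM, all in replicate 4 and 2 of them on the signal side, and 8 of 7637 in WT BM (exact permutation p = 1.0). In the Wapl-degron and single Igh lines with IAADox, Ighv1-26 had 2 of 51 and 0 of 67, Ighv1-81 had 0 of 81 and 0 of 104, and the other Ighv1 genes had 58 of 6165 (0.941%) and 70 of 6222 (1.13%). In the inverted single Igh line with IAADox, Ighv1-81 had 0 of 3. The other Ighv1 genes had 8 of 122 (6.56%) there, 0 of them on the signal side.

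The nearest 2 annotated genes with at least 10 junctions on each side of either gene also had lower levels in WT BM, which the choice of the pair as the highest Ighv1 genes there fixes. Around Ighv1-26, Ighv1-22 held 0.784%, Ighv1-23 held 0.363%, Ighv1-30 held 0.0140% and Ighv1-31 held 0.133% of VH junctions in WT BM. Ighv1-24, which lies between Ighv1-23 and Ighv1-26, had no segment named for it in the 25 libraries. Around Ighv1-81, Ighv1-78 held 0.814%, Ighv1-80 held 0.720%, Ighv1-82 held 1.30% and Ighv1-83 held 0.158%. In INV BM, Ighv1-82, 32259 bases from Ighv1-81 on the far side, held 0.401% ± 0.138 and Ighv1-80, 7935 bases away on the near side, held 0.0790% ± 0.0364 (SD, n = 4). There Ighv1-83 held 0.145% ± 0.0970 and Ighv1-78 held 0.0582% ± 0.0135. With IAADox, Ighv1-78 held 3.17% in the Wapl-degron libraries and 2.80% in the single Igh ones, above both members there.

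Likeness was measured as Pearson's r of log2(percent of VH junctions + 0.01) over the 8 group means, among 98 other VH segments with at least 100 junctions. The groups share cell lines and genotypes, so r is a description. They include WT BM and Primary Untreated, whose values chose both genes, so the likeness of the pair to each other is partly fixed by the choice. Most like Ighv1-26 were Ighv15-2 (r = 0.976), Ighv1-19 (0.970) and Ighv1-82 (0.965), against a median of 0.728. Most like Ighv1-81 were Ighv1-82 (0.949), Ighv1-26 (0.912) and Ighv1-72 (0.910), against a median of 0.540. Ighv1-81 was 25th in likeness to Ighv1-26. The gene nearest to Ighv1-81 on its far side, Ighv1-82, was thus among the 3 most like either gene.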

How the data were processed

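The authors' deposited lists hold 1 junction per line with positions on mm9, per the labels, not counts or normalized values; Bowtie2 is named in the submitters' processing notes. Per the file headers, filters removed unaligned, bait-only, uncut, misprimed, low mapping quality and duplicate reads, among others; thresholds are not given in the sources used here, and no molecular identifiers exist, so intervals cover counting error only. Here lines were counted per VH segment (junctions joined over gaps of up to 20 bases, named by an annotated gene within 20 bases). Segments with at least 10 junctions entered limma 3.58.1 (voom, R 4.3.3), called at an adjusted p under 0.05 and tested on simulated data; single values used exact permutation tests (scipy 1.17.1). Genes named beside the pair are the next 3 Ighv1 genes in WT BM, the nearest 2 on each side with at least 10 junctions and the 3 most alike; others are said to be chosen later. The genes and lists were chosen with earlier results of these data known. Counts of distinct joints, other library sizes, filters, blocks and left-out libraries were alternatives. Summed libraries, in-frame shares, minus-strand tests and shares without Ighv5-2 were added after seeing the data. The planned tests of the ratio against WT BM are not given, because those libraries chose the genes. Pooled lists and other samples were not used here.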

Additional observations from a re-analysis of the deposited data

Results flagged for a closer look

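Among the 4 INV BM libraries, 2 of 23 measures had 1 library far from the others, where chance gives about 1 in 20. In replicate 4, 10.0% of Ighv1-26 junctions lay on the minus strand against 0% in the other 3. In replicate 3, 11.7% of Ighv1-81 coding-side junctions used Ighj1 against 21.7% to 22.5% in the others. Replicates 2 to 4 share joints, and Ighv1-26 had only 100 junctions in replicate 4.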

How the results depend on the processing

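The IAADox rises kept their direction under every alternative. With 0 junctions in the untreated and inverted libraries, Ighv1-26 could only rise with IAADox and fall with inversion. Leaving aside the Wapl-degron fit with treated libraries summed to 1 sample, which gives no call, the calls were lost only with the sequencing run as a block in the single Igh line: 7.77 for Ighv1-26 and 8.56 for Ighv1-81, with 58 segments called. The falls with inversion were lost only with VH junctions as the library size (-2.28 and -2.24, 45 segments called). Replicate numbers did not pair the libraries (correlations of -0.127 to 0.110), and with the replicate block the values were 6.97 and 4.95, 7.41 and 6.11, and -5.91 and -5.16, each still called; the differences between lines were 0.37 and 1.43. Counts of called segments moved with the filter, to 245 of 267, 226 of 250 and, for the inversion, 137 of 255 (median -2.56) with at least 1 junction, and to 53 of 64, 56 of 65 and 52 of 53 with at least 100, a filter that drops Ighv1-26, and Ighv1-81 in the Wapl-degron line.

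Of 140 alternative values of the levels, 21 moved by more than the spread between libraries, 12 of them with distinct junctions counted once, 4 as a share of D and VH junctions and 5 within single runs.

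The difference between lines for Ighv1-26 was -0.0737 with distinct junctions, and -0.24 to 0.91 with single libraries left out (-0.24 without Wapl-degron IAADox replicate 2, -0.14 without Wapl-degron Untreated replicate 1). Its untreated counts were 0 in both lines, so no conclusion is drawn from this difference. The ratio against WT BM ran from -0.0284 to 0.80 in the Wapl-degron line, and against the uninverted line from -0.58 to 0.83 in the inverted one. The inverted range is not a measured ratio, because only inverted replicate 2 held junctions of the pair. In the other inverted libraries the ratio came from the constant added to each count, so no conclusion is drawn from that range.

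None of the joint measures that changed sign had passed a test. Ighv1-26 minus Ighv1-81 became -0.64 (Ighj2) and -0.0322 (inserted bases) points or bases in WT BM alone, and -0.17 bases with distinct joints. Ighv1-26 minus other Ighv1 genes became 1.17 (Ighj3), -0.27 (bases lost), 0.20 (in frame), -0.0470 (inserted bases) and 0.96 (no loss) with distinct joints, and its in-frame value 4.28 in WT BM alone and 1.70 with shared libraries summed. Leaving out single libraries gave -0.16 to 0.21 bases lost, -2.11 to 2.37 points in frame and -5.85 to 0.61 points without loss. Ighv1-81 minus other Ighv1 genes became -1.43 (Ighj1) and 1.46 (Ighj2) in WT BM alone and -1.04 (Ighj1) with distinct joints. The cause of these changes was not tested. Counts of 0 to 4 in untreated lines limit every effect size there.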
